A study of Mus musculus with 8 samples.

Results

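Capsular hepatic stellate cells (cHSC) are the mesenchymal cells of the adult mouse liver that the community clustering of the study placed in cluster 3, written m3c. The cluster label alone chose the cells: 91 from male mice, on 6 plates, and 22 from female mice, on a single plate, out of 1337 mesenchymal cells and 3491 cells in all. The cells were compared with the stellate cells of the lobule (HSC, cluster m7c, 72 cells), with the Wt1+ fibroblasts (clusters m11c and m12c, 53 and 60 cells) and with the mural cells of the vessels (clusters m2c, m5c, m8c, m9c and m15c, 467 cells). All of the last are grouped as mural here, although the study assumed m5c to be second layer cells of the vein wall. It scored m5c closer to fibroblasts than to mural cells. All cells were from adult mice between 8 weeks and 1 year old, either C57BL6/J or heterozygous for fluorescent reporters on Pdgfrb, Pdgfra, Acta2, Cspg4 or Cldn5, and mesenchymal cells were sorted into 384-well plates on the Pdgfra-H2bGFP, Pdgfrb-GFP or Acta2-GFP signal or with an antibody against PDGFRα. The labels used give a plate and a sex for each cell but not the mouse, so values of single mice are not known. They do not state the reporter. The names of the plates called male plates 5 and 6 below hold Acta2 and Rb, which the labels do not explain.

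Stellate cells lie in the space between the sinusoidal endothelium and the hepatocytes. They store vitamin A as retinyl esters, which the enzyme encoded by Lrat makes, and secrete reelin, hepatocyte growth factor and BMP ligands. After injury they can become collagen-producing myofibroblasts. The outer surface of the liver is covered by a mesothelium that rests on a thin collagenous capsule, and WT1, a zinc finger transcription factor, marks mesothelium in many organs. The name of the cells refers to this capsule, but the position of a cell is not part of the count data used here.

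The median depth of the cHSC was 197731 gene counts and 3508 detected genes, with a range of 49527 to 819328 counts. It was 181097 counts and 3304 genes in the male cells and 292844 counts and 5879 genes in the female cells, so sex, plate and depth cannot be told apart. A mitochondrial share of 1.81% (median) was close to the 1.77% of m7c. Xist was counted in all 22 female cells and in 1 of 91 male cells, and a Y-linked gene in 59 male and 7 female cells. Levels are given as CPM, the summed counts of a gene in a pool or plate scaled to a common total of all gene counts. They are not divided by gene length, so levels were compared within a gene, and sums over a list, to which long genes add more, within a list.

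Of the 5 genes that mark cHSC, Wt1, Fmod, Mfap4 and Gpx3 were above the level of HSC on every plate, and Reln was shared with HSC. Wt1 was at 414 and 422 CPM in the male and female cHSC, and its level over the 7 plates ran from 245 over a median of 422 to 568 CPM. In HSC of the 5 plates with at least 5 such cells, Wt1 was at 0, 1.46, 2.52, 3.68 and 36.3 CPM. No cHSC plate overlapped an HSC plate, which was so for 60 of 18111 genes with cHSC higher (0.331%) and 29 with cHSC lower (0.16%). Fmod, which encodes the collagen-binding proteoglycan fibromodulin, ran from 501 over 854 to 2248 CPM in cHSC and was at 0, 0.839, 12.8, 29.5 and 58.8 CPM in HSC. Mfap4, which encodes a microfibril-associated protein, ran from 542 over 1287 to 2697 CPM in cHSC and was at 5.87, 29.5, 50.3, 65.9 and 99.3 CPM in HSC. Both genes had the same separation as Wt1.

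Gpx3, which encodes the secreted glutathione peroxidase, was present in both populations. It ran from 2398 over 3729 to 6920 CPM in cHSC, while the HSC plates were at 118, 241, 288, 295 and 1217 CPM. Reln went the other way. It ran from 992 over 1297 to 2604 CPM in cHSC and was at 2372, 3170, 3436, 3675 and 3965 CPM in HSC, so that the lowest HSC plate fell within the cHSC range and cHSC was lower on all 5 plates that held both. In the remaining clusters Wt1 reached 397 and 248 CPM in the male and female m12c, but only 53.8 and 71.7 CPM in m11c, and no pool sum of a mural cluster passed 58.0 CPM, although m5c reached 78.0 CPM on 1 male plate. Reln was at or below 4.78 CPM in m11c and at 1.74 and 103 CPM in the male and female m12c. The study named these markers from the same cells, so their levels in cHSC are no test of the label. Each of them was also found in another cluster. Wt1 was also found in m12c, Reln in m7c, and Fmod, Gpx3 and Mfap4 in most plates of both fibroblast clusters, although Fmod was at 22.3 CPM on 1 plate of m11c. The plates of m5c ran from 217 to 1560 CPM for Fmod, from 1199 to 2768 CPM for Mfap4 and from 7.01 to 1681 CPM for Reln, which overlapped the cHSC plates.

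**Figure D1:**
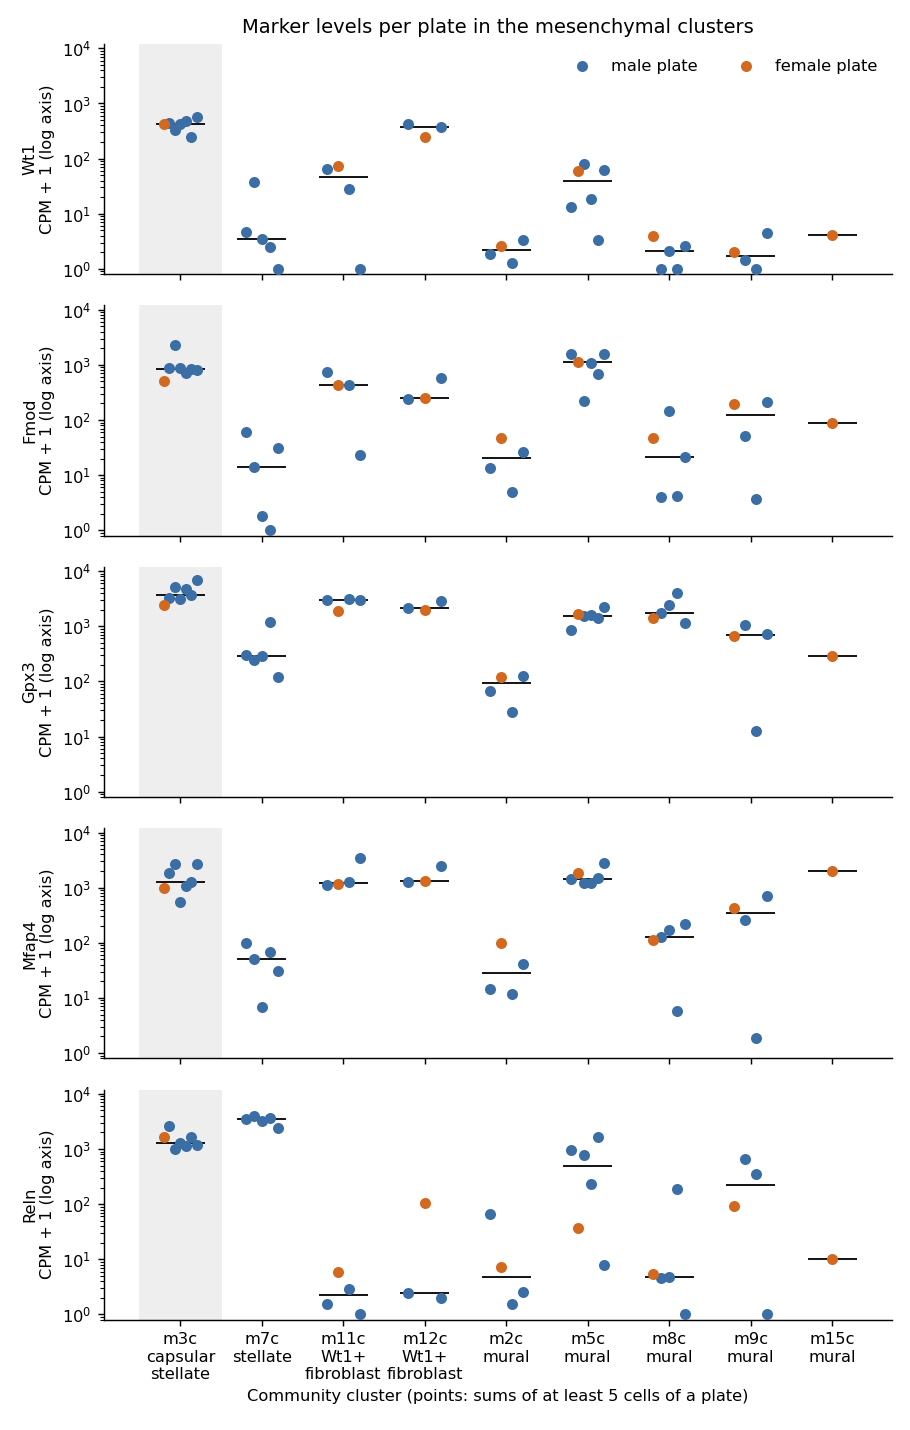
Levels of the 5 markers (CPM + 1, log axis) in the mesenchymal clusters, where each point is the sum of at least 5 cells of 1 plate, blue for male and orange for female plates, and the bar is the median. The 7 cHSC plates lie above every HSC plate for Wt1, Fmod, Gpx3 and Mfap4, and above every plate of m11c and m12c for Reln, where the highest cHSC plate passes the lowest HSC plate.

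The promoters of these markers are shown because WT1 itself is a DNA-binding factor and the markers were chosen together. The set of RefSeq promoters (GRCm38.p6) used here had an entry for 3 of the 5, Fmod, Gpx3 and Reln. Each sequence is the 250 bases before the annotated start, 5′ to 3′ on the strand of the gene, at chr1:134037004-134037253 (+), chr11:54902604-54902853 (+) and chr5:22344706-22344955 (−). Capitals mark a match to one of 4 motifs searched on both strands: GCGTGGGAG and GCGGGGGCG, which WT1 and the EGR factors bind, AGATAA of the GATA factors and TATAAA of the TATA box.
Fmod: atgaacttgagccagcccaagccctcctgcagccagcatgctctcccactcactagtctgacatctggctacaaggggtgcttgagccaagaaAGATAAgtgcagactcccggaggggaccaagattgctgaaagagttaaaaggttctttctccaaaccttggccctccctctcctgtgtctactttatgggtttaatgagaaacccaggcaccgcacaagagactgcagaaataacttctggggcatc
Gpx3: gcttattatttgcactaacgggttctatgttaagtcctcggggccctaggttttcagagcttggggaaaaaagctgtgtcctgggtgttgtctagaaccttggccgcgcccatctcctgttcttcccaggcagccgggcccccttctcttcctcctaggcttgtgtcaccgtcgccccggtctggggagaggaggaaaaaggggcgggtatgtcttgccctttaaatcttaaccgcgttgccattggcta
Reln: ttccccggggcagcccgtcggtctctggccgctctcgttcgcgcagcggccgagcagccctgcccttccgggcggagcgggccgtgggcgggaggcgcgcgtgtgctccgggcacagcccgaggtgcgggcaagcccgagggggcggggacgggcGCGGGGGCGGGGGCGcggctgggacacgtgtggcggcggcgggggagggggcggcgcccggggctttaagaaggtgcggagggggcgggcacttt
The Reln window held GCGGGGGCG at 2 overlapping positions, starting 95 and 89 bases before the start. Its GC content was 80% and it held 37 CpG. The Fmod window held AGATAA once, 157 bases before the start, at a GC content of 51.2%. The Gpx3 window, at 55.2% GC, held no match. GCGTGGGAG was in 0.405% of the 32851 promoters of the table, GCGGGGGCG in 2.57%, AGATAA in 9.99% and TATAAA in 12.4%, and the median GC content was 52.4%. A match describes letters only, and binding was not measured.

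The markers were found together in single cells. With a limit of 20 counts, the detection limit of the study, Wt1 was detected in 63 cHSC (55.8%, exact binomial 95% interval 46.1 to 65.1%) and Reln in 81 (71.7%, 62.4 to 79.8%). Both were above the limit in the same cell in 48 cHSC (42.5%, 33.2 to 52.1%). The same was true of 3 of 72 HSC (4.17%), 1 of 60 cells of m12c (1.67%), 3 of 87 cells of m5c (3.45%), and 0 of 53 cells of m11c, where a share of up to 6.72% is within the interval. Among the other fibroblasts there was none in 562 cells (up to 0.654%). All 5 markers passed 20 counts in 21 cHSC (18.6%) and in 0 of 72 HSC (up to 4.99%). These intervals cover counting error only, since Smart-seq2 reads carry no molecular identifiers and the cells of a plate share their preparation. With a limit of 1 count the 5 markers were found together in 68 cHSC (60.2%) and every cHSC had at least 3 of them. All 5 were then also found in 45.5% of m15c, 35% of m12c and 19.4% of HSC. That limit is weak, since Wt1 then also counted in 31.9% of HSC and in 6.87% of the 1091 endothelial cells, whose median depth was 232084 counts.

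The first comparison asks how cHSC differ from HSC. Clusters were defined on these same counts, so a difference between clusters is partly built in, and the tests below describe its size against the spread of the sums. In edgeR's quasi-likelihood test over sums per cluster and pool, 0 of 19267 genes were called higher (0%) and 0 lower (0%) at an adjusted p of 0.05 and a log2 fold change of 1, and 524 had an unadjusted p under 0.05. HSC entered this fit with a single male sum, because only 4 HSC were female, so the standard errors and p-values rest on the spread between the pools of the other clusters and assume that HSC vary like them. With 1 HSC sum this fit has little power, so the counts of 0 do not show that the clusters are alike. DESeq2 on the same sums called 179 genes higher and 19 lower. Summed per plate, edgeR called 23 of 18111 genes higher (0.127%) and 18 lower (0.0994%). Those p-values measure the spread between plates, some of which may share a mouse. The median log2 fold change over all genes was 0.06 in the fit over pools and 0.27 in the fit over plates.

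The 23 genes called higher in the fit over plates held 4 of the 5 markers, 4 of 22 fibroblast markers, 2 of 20 elastic fibre genes, 1 of 24 proteases and inhibitors and 0 of 24 collagens. Over pools, with no replicate of HSC, Mfap4 differed by 4.28 on the log2 scale (SE 0.75, adjusted p = 0.080), Gpx3 by 3.14 (SE 0.56, adjusted p = 0.080), Fmod by 5.20 (SE 0.99, adjusted p = 0.097) and Wt1 by 4.20 (SE 1.26, adjusted p = 1.0). Over plates the values were 5.01 for Mfap4 (adjusted p = 0.0018), 3.33 for Gpx3 (adjusted p = 0.0018), 5.58 for Fmod (adjusted p = 0.0075) and 5.52 for Wt1 (adjusted p = 0.036). Reln differed by −1.28 over pools and −1.13 over plates and was called in neither.

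Fgl2, which encodes a secreted fibrinogen-like protein, ran from 189 to 1139 CPM over the cHSC plates and from 0 to 4.53 CPM over the HSC plates. Igfbp6, which encodes a binding protein with preference for IGF2, ran from 151 to 1933 CPM against 1.90 to 22.1 CPM. Ltbp2, a latent TGF-β binding protein of microfibrils, ran from 246 to 1075 CPM against 0 to 34.8 CPM. The fit over plates had called these 3 genes, so their separation is no further evidence. Their ranges did not overlap, nor did those of Sulf1, Sulf2, Fxyd6, Spon1, Lbp, Cpxm2, Fmo2, Vgll3 and Igfbp4. Serpinf1, which encodes the antiangiogenic factor PEDF, was at 625 and 378 CPM in the male and female cHSC and at 16.6 CPM in the male HSC (log2 difference 5.11 over plates, adjusted p = 0.0090). Gsn, the actin-severing protein gelsolin, differed less, at 6041 and 6672 against 2230 CPM (1.61 over plates, adjusted p = 0.0055). The sulfatases Sulf1 and Sulf2, which edit heparan sulfate, were at 190 and 117 CPM in the male cHSC and at 0.720 and 1.51 CPM in the male HSC. Lgr6, Rtl3, Dpep1, Pdlim3 and S100a6 were called as well, but their lowest cHSC plates overlapped the HSC plates.

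Genes called lower over plates included stellate and pericyte genes. Rgs5, a regulator of G protein signalling that marks pericytes, was at 6.26 and 34.1 CPM in the male and female cHSC and at 315, 494, 743, 991 and 1769 CPM in the HSC plates (−6.19 over plates, adjusted p = 4.8e-08). Hhip, the decoy receptor of hedgehog ligands, was at or below 0.499 CPM on every cHSC plate and at 102, 173, 191, 290 and 614 CPM in HSC. Its fold change depends on the prior count of the fit and is not given. Plvap, which encodes the diaphragm protein of fenestrae and caveolae, ran from 3.34 to 928 CPM in cHSC and from 2704 to 9698 CPM in HSC (−3.44, adjusted p = 0.027). Ecm1 was expressed in all cells of both populations but ran from 1957 to 4774 CPM in cHSC against 6375 to 19516 CPM in HSC (−1.58, adjusted p = 0.0061). For Epor and Piezo2 the median HSC plate was at 0 CPM, so these calls rest on few plates.

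**Figure D2:**
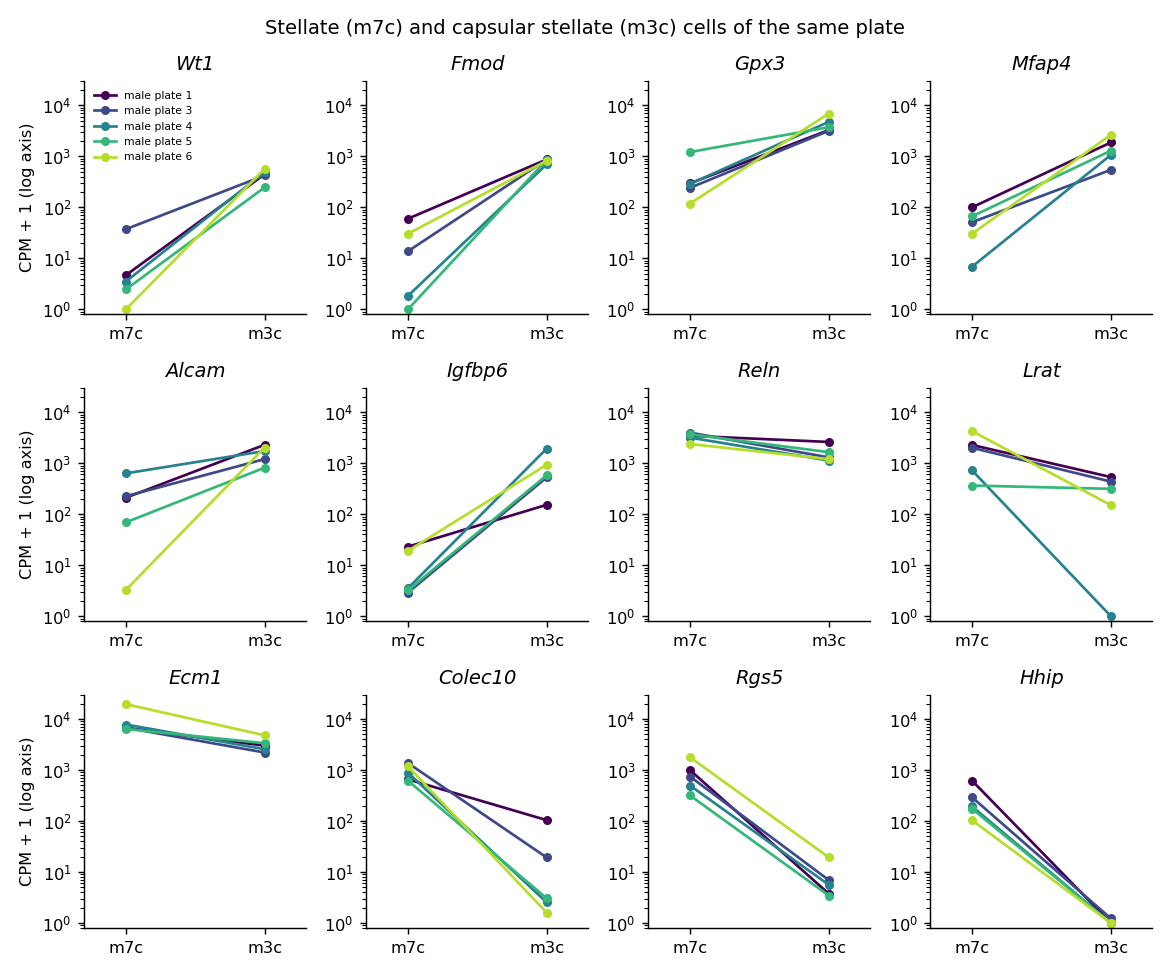
Levels (CPM + 1, log axis) of 12 genes in HSC (m7c) and cHSC (m3c) of the same plate, a line for each of the 5 male plates that held at least 5 cells of both. Wt1, Fmod, Gpx3, Mfap4, Alcam and Igfbp6 were higher in cHSC on all 5 plates, and Reln, Lrat, Ecm1, Colec10, Rgs5 and Hhip lower on all 5.

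Other genes of stellate function had lower levels in cHSC without being called in either fit. Lrat was at 359 and 445 CPM in the male and female cHSC and at 1873 CPM in the male HSC, and was lower on all 5 shared plates. On male plate 4, which held 6 cHSC, it was at 0 CPM. Colec10, which encodes a collectin, was at 103 CPM on male plate 1 and at or below 18.2 CPM on the other 6 plates, while the HSC plates ran from 618 to 1364 CPM. Its relative Colec11 stayed at 979 and 1433 CPM in cHSC against 2212 CPM in HSC. Of 18 vasoactive receptors tested, 14 were below 0 (median −1.62, against 0.06 for all genes). Ednra, the endothelin receptor, was at 317 and 262 CPM against 1594 CPM, Agtr1a, the angiotensin receptor, at 284 and 391 against 1117 CPM, and Calcrl, a subunit of the CGRP and adrenomedullin receptors, at 12.7 and 6.82 against 499 CPM. Pth1r was at 215 and 210 against 727 CPM, but its plates overlapped, reaching 434 CPM in cHSC and 198 CPM in HSC. Hgf ran from 149 to 535 CPM over the cHSC plates and from 123 to 1207 CPM over the HSC plates. It was lower in cHSC on the shared plates except male plate 4, with 535 against 123 CPM. The 18 genes of retinoid handling had a median of −0.56 with 6 above 0.

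On published lists cHSC had levels between those of HSC and of the Wt1+ fibroblasts. The study took m7c as likely HSC because it scored highest on an HSC signature drawn from another data set. A lower level in cHSC is therefore partly built in. Of the 183 tested genes of that signature, 151 were below 0 in cHSC (median −0.93) and 5 were called lower over plates, Plvap, Hhip, Ifitm1, Epor and Piezo2. The summed level of the signature was 41034 and 44386 CPM in the male and female cHSC, 82578 CPM in the male HSC, 15825 and 17241 CPM in m11c and 14213 and 15473 CPM in m12c. Such levels were not particular to cHSC, with 36506 and 28994 CPM in m5c and 38766 and 31954 CPM in m9c. Lists of myofibroblastic (myHSC) and of cytokine-producing (cyHSC) stellate cells came from a study of liver injury. Of 61 myHSC genes, 49 were above 0 (median 1.24) and 5 were called higher over plates: Mfap4, Ltbp2, Fxyd6, S100a6 and Igfbp4. Of 88 cyHSC genes, 77 were below 0 (median −1.08) and 5 were called lower over plates: Igfbp3, Ecm1, Ifitm1, Rgs5 and Plvap. Of the 59 core HSC genes that the study chose on these same cells, 57 were below 0 (median −1.39). The myHSC genes summed to 37328 and 31063 CPM in cHSC and 16577 CPM in HSC, and the cyHSC genes to 57150 and 58513 CPM against 110229 CPM. In m5c the cyHSC genes summed to 66834 and 52728 CPM. Acta2 and Timp1, which rise in activated stellate cells, were called in neither fit. Acta2 was at 304 and 957 CPM in cHSC and at 228 CPM in the male HSC, and Timp1 at 42.6 and 26.9 CPM against 9.72 CPM.

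Of all genes tested against HSC, 9988 of 19267 (51.8%) were above 0. Of 24 collagens, 17 were above 0 (70.8%, median 0.88), none called. Col1a1 ran from 2429 to 6457 CPM over the cHSC plates and was at 1231 CPM in the male HSC. Col8a2 was at 342 and 201 CPM against 5.25 CPM, Col12a1 at 178 and 110 CPM against 1.08 CPM, and Col4a4 at 95.4 and 73.7 CPM against 0.576 CPM. Of 20 elastic fibre genes, 16 were above 0 (80%, median 0.81) and Mfap4 and Ltbp2 were called over plates. Of 24 proteases and inhibitors, 19 were above 0 (79.2%, median 0.84), and Serpinf1 was called over plates. In the IGF axis, Igfbp6 and Igfbp4 were called higher and Igfbp3 and Igf2 lower over plates. Igfbp4 was at 2359 and 2552 against 1104 CPM and Igfbp3 at 370 and 571 against 1274 CPM. Of the 34 genes of the Wnt, BMP and TGF-β pathways 22 were above 0 (64.7%, median 0.72) and Ltbp2 was called over plates, and of the 16 immediate early and stress genes 15 were above 0 (93.8%, median 1.09), none called.

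The second comparison sets cHSC against the Wt1+ fibroblasts. Wt1 passed 20 counts in 55.8% of cHSC, 65% of m12c and 13.2% of m11c. The comparison uses the same cHSC sums as the first, so the comparisons are not independent. Here 72 genes were called higher in cHSC (0.374% of 19267) and 46 lower (0.239%). Of the 8 genes named by size on the higher side, Reln, Gdf2 and Adamts13 are in the stellate identity list. Reln rose by 7.05 on the log2 scale (SE 1.24, adjusted p = 0.0087). Gdf2, which encodes BMP9, was at 1012 and 1411 CPM in the male and female cHSC, at 0.562 and 5.22 CPM in m11c and at 0.476 and 39.7 CPM in m12c (7.32, SE 1.20, adjusted p = 0.0044). Alcam, an immunoglobulin-family adhesion receptor, was at 1522 and 1509 CPM and did not pass 2.17 CPM in the pool sums of m11c or 37.1 CPM in those of m12c, with single plates at up to 2.48 and 61.5 CPM (7.37, SE 0.77, adjusted p = 9.0e-05). Nr1h5, the second farnesoid X receptor gene, was at 208 and 231 CPM and at most 14.1 CPM in either fibroblast cluster. Adamtsl2, which encodes a microfibril-binding protein, rose by 5.55 (SE 0.74, adjusted p = 9.2e-04), from 56.5 and 43.5 CPM in m11c and 25.9 and 72.5 CPM in m12c to 2104 and 2891 CPM. Fgfr2 and Gpat2 were called as well, and Adamts13 was called (adjusted p = 0.036) but not once the pool was a term. Against m12c alone the calls of Reln, Gdf2, Nr1h5, Fgfr2, Gpat2 and Adamts13 were lost, and those of Alcam and Adamtsl2 were not.

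Of the 30 stellate identity genes, 10 were called higher than in Wt1+ fibroblasts and none lower (median 4.13, against 0.13 for all genes): Reln, Hgf, Ngfr, Lhx2, Colec11, Plvap, Ednrb, Gdf2, Masp1 and Adamts13. Hgf was at 302 and 149 CPM against at most 16.1 CPM. Lhx2, a LIM homeobox factor of stellate cells, was at 164 and 304 CPM and at most 8.57 CPM in the fibroblasts. Of the 183 HSC signature genes, 26 were called higher and none lower (median 1.79), and of the 88 cyHSC genes 19 and none (median 1.42). The 59 core HSC genes gave 20 and none (median 3.35), but the study chose that list on these same cells. Summed per plate, 184 of all 18111 genes were called higher (1.02%) and 170 lower (0.939%). The counts higher and lower were then 13 and 1 for stellate identity, 43 and 1 for the HSC signature, 28 and 2 for cyHSC and 25 and 1 for the core list. The gene lower in the stellate, signature and core lists was Hhip, at most 0.499 CPM in either pool of cHSC and between 0.476 and 56.5 CPM in the fibroblast pools. Those lower in the cyHSC list were Cxcl1, a neutrophil chemokine, and Btg2, an immediate early gene. Of the 61 myHSC genes none was called higher and 2 lower, Igf1 and Aebp1 (median −0.47), and summed per plate neither was called and 1 gene, Fam180a, was higher. Ngfr was not called per plate either.

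The lower side held 3 of the 8 Wt1+ fibroblast markers, Scara5, Osr1 and Pi16. Scara5, a ferritin receptor, fell by 8.49 on the log2 scale (SE 0.94, adjusted p = 1.4e-04), from 952 and 734 CPM in m11c and 1084 and 588 CPM in m12c to 1.38 and 3.83 CPM. Osr1, an odd-skipped family factor, fell by 6.75 (SE 1.21, adjusted p = 0.0096). Pi16, which marks adventitial fibroblasts, was at 2.28 and 6.15 CPM in cHSC, and the proenkephalin gene Penk at 2.92 and 6.99 CPM, while the 4 fibroblast sums of Penk ran from 348 to 1125 CPM. Vit, Fndc1, Mfap5, Clec3b and Mmp3 were called lower too, and no cHSC had 20 counts of Scara5, Osr1, Vit, Fndc1, Mfap5, Pi16, Penk, Clec3b or Mmp3. Fbln2 (77.7 and 9.81 CPM in cHSC, 638 to 2057 CPM in the fibroblasts) missed the threshold, with a difference of −4.81 and an adjusted p of 0.052. Adgrd1 (457 and 91.1 CPM against 317 to 601 CPM) had a difference of −0.79 (adjusted p = 0.98), which turned to 0.37 when summed per plate.

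Of 22 fibroblast markers 4 were lower and none higher than in the Wt1+ fibroblasts. Of 24 collagens 1 was higher and none lower, of 10 small leucine-rich proteoglycans none was higher and 1 lower, of 24 proteases and inhibitors 2 were higher and 2 lower, and of 15 laminin and basement membrane genes none was called. Fbln1, which encodes a fibulin of elastic fibres and basement membranes, was at 89.5 and 116 CPM in cHSC and between 2728 and 4171 CPM in the Wt1+ fibroblasts. Fmod, Gpx3 and Mfap4 differed by 0.60, 0.33 and −0.45 and none was called. Of 20 elastic fibre genes, Emilin1 was higher and Mfap5, Fbln1 and Emilin2 lower, the last not once the pool was a term. Of 27 transcription factors, Lhx2, Nr1h4 and Nr1h5 were higher and Osr1, Ebf1 and Ebf2 lower. Wt1 differed by 1.43 (SE 0.68, adjusted p = 0.51), and the plates of m12c and cHSC overlapped. The chemokine Cxcl12, which retains haematopoietic cells, was at 4960 and 4958 CPM in cHSC and between 1052 and 1244 CPM in the fibroblasts (2.0, SE 0.31, adjusted p = 0.0023). All 16 immediate early and stress genes were below 0 (median −2.06), with Dusp1 and Nr4a1 called lower but neither once the pool was a term. These genes respond to dissociation, and the part of handling in this difference was not tested.

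The third comparison, with the mural cells, gave 320 genes higher in cHSC (1.66% of 19267) and 53 lower (0.275%). DESeq2 on the same sums called 332 higher and 247 lower. All 5 markers were higher than the mean of the 5 mural clusters, with log2 differences of 7.05 for Wt1 (SE 0.54, adjusted p = 4.6e-07), 5.37 for Reln (SE 0.82, adjusted p = 0.0015), 2.51 for Gpx3 (SE 0.26, adjusted p = 1.8e-05), 2.49 for Fmod (SE 0.40, adjusted p = 0.0023) and 1.49 for Mfap4 (SE 0.34, adjusted p = 0.025). Mfap4 and Fmod were not higher than in each of them. Mfap4 ran from 1199 to 2768 CPM over the plates of m5c. On the female plate Mfap4 was at 1847 CPM in m5c and 2035 CPM in m15c against 978 CPM in cHSC. Fmod ran from 217 to 1560 CPM over the plates of m5c, and on the female plate it was at 1138 CPM in m5c against 501 CPM in cHSC. Alcam differed most among the named genes, by 8.40 (SE 0.54, adjusted p = 4.0e-08), and no pool sum of a mural cluster passed 45.2 CPM, although m5c reached 217 CPM on 1 male plate. Lama1, a laminin chain, was at 51.4 and 76.5 CPM and at most 1.77 CPM in a mural cluster. Spon2, an extracellular spondin, was at 970 and 936 CPM in the male and female cHSC and rose by 4.68 (SE 0.44, adjusted p = 1.2e-05). Robo2, a receptor for SLIT ligands, Fcna, which encodes ficolin A, the orphan receptor gene Gpr182 and St3gal5, a ganglioside synthase, were also higher. Lcn8 was called (5.56, adjusted p = 0.035) but not summed per plate or with the pool as a term. Gpr182 was at 1680 CPM and was counted in 99.8% of the endothelial cells, and the part of endothelial RNA in its level was not tested. In cHSC it was at 238 and 111 CPM, with a limit of 20 counts passed in 26.5% of cells.

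The lower side held 8 contractile genes among its 53. Of the 20 contractile and mural genes tested, none was higher (median −2.50, against 0.14 for all genes). Notch3, the receptor that maintains arterial smooth muscle, was at 26.9 and 22.3 CPM in cHSC and between 181 and 2372 CPM in the mural clusters (−4.64, SE 0.66, adjusted p = 9.3e-04). Myh11, the smooth muscle myosin, fell by 3.78 and Acta2 by 2.32. Rgs5, Mcam, Lmod1, Myl9 and Des fell as well, Lmod1 not when summed per plate. The remaining named genes on this side, each at or under 16.6 CPM in both pools of cHSC, were Aspn, which encodes asporin, Myocd, the smooth muscle coactivator, Niban1, Igfbp5, Lmcd1 and Ephx3. An alternative left out m5c, the cluster that the study scored closer to fibroblasts. Lrat was at 1554 and 1292 CPM in m5c and at 359 and 445 CPM in cHSC, and m5c had Fmod at 964 and 1138 CPM, Dpt at 1897 and 1764 CPM and Reln at 495 and 36.4 CPM, with Alcam at 45.2 and 9.67 CPM and Wt1 at 26.8 and 58.0 CPM. Without m5c the counts were 353 higher and 73 lower.

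Against mural cells 55.1% of all genes were above 0. Of 8 Wt1+ fibroblast markers 4 were above 0 (50%) and none was called, and of 20 elastic fibre genes 12 were above 0 (60%), with 6 called higher and 1 lower. Of 22 fibroblast markers 9 were higher and 1, Fbln1, lower (median 1.26). Of 30 stellate identity genes 8 were higher and 1, Des, lower (median 1.79). Of 24 collagens 5 were higher and Col18a1 was lower, and Col8a2, a short-chain collagen of basement membranes, rose most, by 6.76 (SE 0.81, adjusted p = 1.6e-04). Among 34 genes of the Wnt, BMP and TGF-β pathways 7 were higher and Chrdl1, a BMP inhibitor, lower. Gdf2 rose by 5.09, Frzb, a secreted Wnt inhibitor, by 4.17, Wnt5a by 2.89 and Gdf10 by 2.84. Wnt4 and Wnt11 were called but not once the pool was a term, and Wnt11 was at only 2.60 and 5.99 CPM. Wnt5a was not called when summed per plate, nor was Fbln1. Of the IGF axis Igfbp6 was higher, by 4.56 (SE 0.46, adjusted p = 1.8e-05), and Igfbp5 lower.

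**Figure D3:**
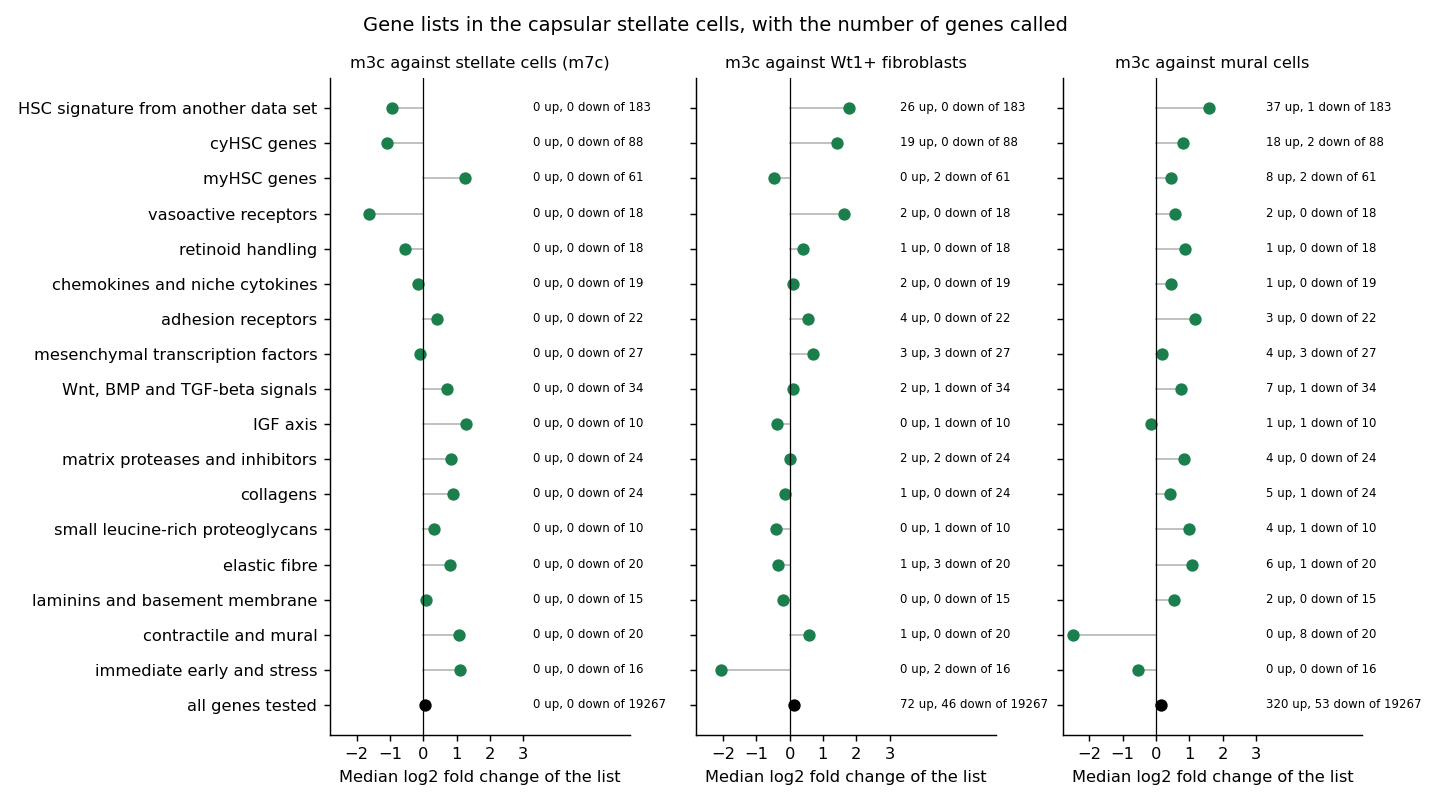
Median log2 fold change of the tested genes of each list in cHSC against HSC, Wt1+ fibroblasts and mural cells, with the number of genes called in each direction beside it and all genes tested in black at the bottom. The HSC signature and the cyHSC genes lie below 0 against HSC and above 0 against the other populations, and the contractile list lies at −2.50 against mural cells.

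In edgeR's fit over pools no gene was called in all 3 comparisons, since it called none against the single HSC sum. The genes with the largest smallest difference, among those counted in at least 50% of cHSC, were Col27a1, Alcam, Csdc2, Ncam1, Igf2bp2, Capn6, Clmp and E030013I19Rik. Col27a1, which encodes a fibrillar collagen of cartilage, differed by 4.26 from HSC, 4.38 from Wt1+ fibroblasts and 4.36 from mural cells, and was called only against mural cells (adjusted p = 0.0034), though not when summed per plate. It varied between plates, from 3.84 over 149 to 471 CPM. Alcam ran from 815 over 1729 to 2364 CPM in cHSC and was at 2.27, 68.1, 209, 224 and 630 CPM in HSC, so no plate overlapped. It passed 20 counts in 89.4% of cHSC and 22.2% of HSC, and its difference from HSC was 2.67 (SE 1.12, adjusted p = 1.0). Ncam1, which encodes a neural cell adhesion molecule, was at 343 and 91.1 CPM in the male and female cHSC, but the HSC plates, at 0, 0.732, 21.7, 38.5 and 192 CPM, overlapped the lowest cHSC plates. In m5c Ncam1 was at 398 and 295 CPM, and on the female plate of m15c at 585 CPM. Csdc2, which encodes an RNA-binding protein, ran from 80.1 to 1197 CPM in cHSC and was at 1.23, 2.52, 6.80, 53.6 and 110 CPM in HSC. Capn6, a calpain without protease activity, and Clmp, a tight junction adhesion molecule, were called against mural cells only, Capn6 not when summed per plate. Igf2bp2 did not exceed 20.6 CPM in either pool and rests on low counts.

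Markers of other cell types were counted too. The 12 mesothelial markers summed to 6.10 and 6.32 CPM in the male and female cHSC and to 17835 and 13408 CPM in the mesothelial cluster m16c, and Lrrn4 and Bnc1 were at 0 in cHSC. Msln was at 0.0530 and 1.33 CPM. The 10 endothelial markers summed to 31.7 and 339 CPM and the 10 immune markers to 70.3 and 486 CPM, both higher in the female plate, and the defining genes Pecam1 (10.3 and 50.9 CPM) and Ptprc (0.477 and 16.8 CPM) followed. The 10 hepatocyte markers summed to 1430 and 2907 CPM, most of it from Trf, which was also at 637 CPM in the male HSC, and Alb was at 115 and 525 CPM. The same list summed to 13916 and 8149 CPM in the epithelial cells and to 1500 CPM in the male HSC. The 10 cholangiocyte markers summed to 42.8 and 32.4 CPM. The part of such RNA in the values of the female plate was not tested.

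The cHSC varied among themselves in stellate and fibroblast genes. Each cell was scored by the mean of log2(1 + counts per 10000) over the genes of a list. On the HSC signature cHSC ran from 0.29 to 1.48 with a median of 0.78, and m7c had a median of 1.32, m5c of 0.75, m11c of 0.38 and m12c of 0.34. On the fibroblast markers the medians were 2.75 in cHSC, 1.76 in m7c, 3.04 in m5c, 3.51 in m11c and 3.43 in m12c. Every cHSC lay above the HSC median for fibroblast markers and 9 above it for the HSC signature. For myHSC genes 111 cHSC lay above the HSC median, and for cyHSC genes 2. The ranges overlapped, with 76 cHSC inside the HSC range for the signature and 64 for the fibroblast markers. Within cHSC the stellate and fibroblast scores had a Spearman rho of −0.40 over all its cells, Fmod and Reln one of −0.45, Fmod and Mfap4 one of 0.42 and Wt1 and Reln one of 0.0025. These are descriptions over cells that share plates, and the stellate score also rose with total counts (rho 0.59) whereas the fibroblast score did not (rho −0.0014).

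**Figure D4:**
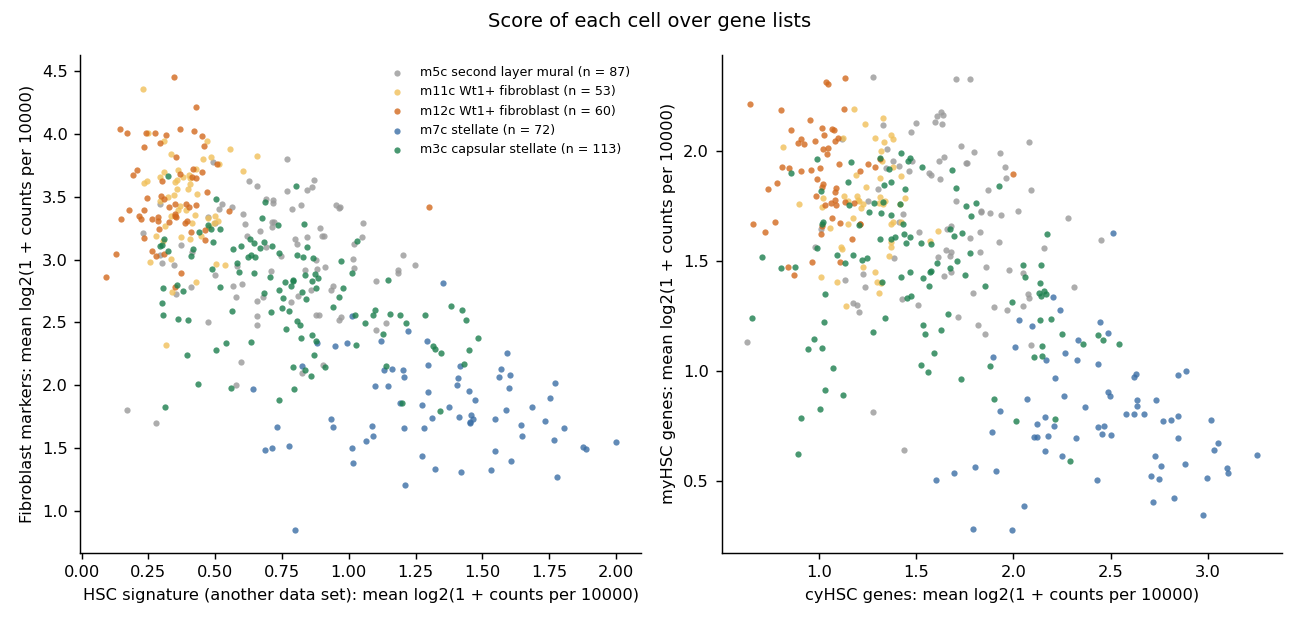
Score of each cell of m3c, m7c, m5c, m11c and m12c, as the mean of log2(1 + counts per 10000) over the genes of a list, with the HSC signature against fibroblast markers on the left and cyHSC against myHSC genes on the right. The cHSC (green) lie between HSC (blue) and the Wt1+ fibroblasts (yellow and orange), with overlap of both, and overlap m5c (grey).

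Male and female cHSC were represented by 91 and 22 cells in 1 pool each, so no test was possible, and sex cannot be told apart from plate and depth. For Wt1 (414 and 422 CPM), Mfap4 and Reln the female plate lay within the range of the male plates. Fmod (937 and 501 CPM) and Gpx3 (3830 and 2398 CPM) were lower on the female plate than on every male plate. Apart from Xist (0.0530 and 278 CPM) and its antisense partner Tsix (0 and 69.4 CPM), the named genes with the largest excess in female cells were Ankrd35, at 0.106 and 98.3 CPM, Slc12a9, at 0.212 and 66.2 CPM, Cers1, at 0.424 and 66.4 CPM, and Itih4, at 0.690 and 62.5 CPM. Reads of Xist and Tsix overlap and may not be told apart. Genes with the largest excess in male cells, Y-linked genes aside, were Serpina1e, at 33.9 and 0.166 CPM, AA474408, at 53.4 and 0.998 CPM, Cd248, which encodes endosialin, at 208 and 16.6 CPM, Lats2, a Hippo pathway kinase, at 423 and 37.6 CPM, and Tmem106b, at 177 and 15.5 CPM. Serpina1e is one of several near-identical copies, so its count is uncertain. Lats2 was at 0 CPM on the lowest male plate, so its male and female ranges overlapped. The female cells of m12c and m5c came from the same single plate as the female cHSC, so these clusters do not separate sex from plate. Ankrd35 had the same direction in m12c (1.59 and 75.4 CPM) and a smaller gap in m5c (21.2 and 33.6 CPM). In m12c Lats2 went the other way (60.1 and 76.9 CPM) and Cd248 had a smaller gap (135 and 68.4 CPM), while in m5c both had the direction seen in cHSC (174 and 87.7 CPM for Lats2, 38.9 and 3.18 CPM for Cd248).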

How the data were processed

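Liver cells were sorted singly into 384-well plates and sequenced by the Smart-seq2 protocol with single reads of 50 bases. The deposited values are raw gene counts per cell, made by the authors with bcl2fastq, Bowtie or Bowtie2 and featureCounts of Subread on GRCm38 (mm10), versions not given in the sources used here. Smart-seq2 reads do not mark strand. The authors removed cells of low quality, putative doublets and cells with mixed transcriptomes, and clustered the rest with pagoda2. No further doublet call was made here.

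Of 3491 cells, 3451 on 18 plates were used, 92 spike-ins were left out, and 40 cells of 4 plates with few cells each were not used. cHSC were the 113 cells of community cluster 3. Counts of 46517 genes were summed per cluster and pool (male or female, at least 5 cells) into 17 sums, and tested with edgeR 4.0.16 (TMM, filterByExpr, quasi-likelihood test, 8 residual degrees of freedom, Benjamini-Hochberg adjustment over 19267 genes; called at adjusted p of 0.05 and log2 fold change of 1) in R 4.3.3. Contrasts with several clusters weight them equally. DESeq2 1.42.0, sums per plate (18111 genes) and further settings were alternatives. Replicates are pools or plates, the mice are not named, and p-values may measure technical spread.

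The pools came from the same 2 samples in each cluster, so the pool pairs the sums by origin. Over the 8 clusters with both pools the correlation of deviations ran from −0.016 to 0.15 (median 0.093). Pool as a term was an alternative.

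The population, its markers, the lists and the tests were chosen with earlier results of these data known. Genes named are the markers, the study's capsular genes, the 8 largest calls per comparison and direction counted in at least 50% of the higher cells, the 8 with the largest smallest difference, and up to 4 members per list. Genes called over plates, and further list members, were added after their values were seen.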

Additional observations from a re-analysis of the deposited data

Results flagged for a closer look

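Among 46 named genes, 16 had a cHSC plate apart from the others by Dixon's criterion over 7 plates, which compares the gap to the nearest plate with the range. For normally distributed values chance gives about 1 flag in 20 genes, and the rate for CPM of plates with few cells was not tested. The plates held between 5 and 31 cHSC, and those with the fewest cells, male plates 2 and 4 with 5 and 6 cells, gave 6 of the 16.

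Male plate 4 had the highest level of Fbln2 (591 CPM), Adgrd1 (1800 CPM, next 664 CPM), Notch3 (254 CPM, next 22.3 CPM) and Clmp (911 CPM, next 252 CPM), and the lowest of St3gal5 (33.0 CPM, next 242 CPM). Male plate 2 had the highest Fmod (2248 CPM, next 870 CPM). Male plate 1 had the highest Reln (2604 CPM, next 1643 CPM) and Nr1h5 (492 CPM, next 233 CPM). Male plate 5 had the highest Myocd (7.75 CPM, next 2.96 CPM) and male plate 6 the highest Igf2bp2 (103 CPM, next 31.5 CPM).

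The female plate, the deepest per cell, had the highest level of 6 genes that were near 0 in cHSC: Osr1 (9.81 CPM, next 1.78 CPM), Aspn (4.16 CPM, next 1.53 CPM), Niban1 (6.49 CPM, next 2.50 CPM), Igfbp5 (16.6 CPM, next 3.56 CPM), Lmcd1 (15.8 CPM, next 3.07 CPM) and Ephx3 (10.5 CPM, next 4.74 CPM). No explanation was tested for any of these.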

How the results depend on the processing

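The counts of called genes depended on the fit, and the causes were not tested unless named. Against HSC the 0 higher and 0 lower became 179 and 19 with DESeq2, 35 and 11 without a filter on low counts, 4 and 2 with each cell thinned to 50000 counts, 23 and 18 summed per plate, 23 and 11 with the plate as a term and 19 and 6 on male plates alone, while sums of at least 3 and 10 cells gave 5 and 2 higher. The last 2 plate settings were added after seeing the data. Against Wt1+ fibroblasts the 72 higher and 46 lower became 394 and 384 with DESeq2, 230 and 128 without the filter, 44 and 23 with sums of at least 3 cells and 184 and 170 per plate, which fell to 86 and 38 with the plate as a term and 62 and 62 on male plates, thinning gave 129 higher, and m12c or m11c alone gave 36 and 19 higher. Against the other fibroblasts in their place, 29 were higher and 16 lower. Against mural cells the 320 higher became 854 without the filter, 200 with sums of at least 10 cells, 186 per plate, 143 with the plate as a term and 507 on male plates, and the 53 lower became 247 with DESeq2 and 125 without the filter.

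The replicate block, with the pool as a term, gave 0 and 0 against HSC, 84 and 47 against Wt1+ fibroblasts and 217 and 57 against mural cells. It ended the calls given above of Adamts13, Emilin2, Dusp1 and Nr4a1 against Wt1+ fibroblasts and of Lcn8, Wnt4 and Wnt11 against mural cells, and Pdgfrb, Lama1 and Robo2 passed the threshold against Wt1+ fibroblasts. Reversals were Scara5 against HSC with sums of at least 3 cells (−0.44), Mfap4 against Wt1+ fibroblasts with the plate as a term (0.64), Adgrd1 per plate (0.37), with the plate as a term (0.15) and on male plates (0.53), and, with the other fibroblasts in their place, Fmod (−1.11), Fbln2 (0.64), Adgrd1 (4.34) and Mfap5 (0.075). Leaving out 1 pool gave 154 values of named genes, none reversed and 72 moved by more than the spread between pools. Depth limits genes at a few counts per plate, and HSC with 5 to 12 cells on 4 of 5 plates.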
